A study of Rattus norvegicus with 10 samples.

Results

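Keratins and other intermediate filament proteins form the ropelike part of the cytoskeleton, and the 8 genes described here are Krt8, Krt18, Krt19, Des, Vim, Nes, Nefm and Nefl. They were taken by gene symbol from the deposited table, in which each had 1 probe set, so that 8 of 19049 named genes were followed. The RNA came from the left lateral gastrocnemius, a calf muscle, of male Sprague-Dawley rats, an outbred stock, with 5 aged and 5 young animals and 1 expression array for each. The aged rats are given an age of 24 months and were 28 months old at necropsy; the young controls are given an age of 6 months and were 7 months old at necropsy. No transgene or treatment is named for either group, both groups were kept on the same light cycle with free access to food, and the submitters present the aged rats as a sarcopenia model, sarcopenia being muscle loss in old age. The values are probe set intensities, normalized between arrays by the authors. They were compared on the log2 scale with limma, a linear model fitted over all 43686 probe sets, with p-values adjusted over all of these by the Benjamini-Hochberg method and a threshold of 0.05.

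Intermediate filament proteins differ by cell type, and a cell's set changes as it matures or is injured. Keratins assemble only as pairs of an acidic (type I) and a basic (type II) chain, and Krt8 with Krt18 or Krt19 is the pair of simple epithelia such as liver and gut. Muscle precursor cells carry vimentin and nestin, mature fibres replace most of these with desmin at the Z-discs, and keratins 8 and 19 have been described at the costameres, which tie the outermost sarcomeres to the membrane. Neurofilament chains fill the axons of motor and sensory nerves.

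Krt8 and Krt18 lie near each other in the RefSeq annotation of the rat assembly GRCr8, on opposite strands and pointing away from each other. Between them lies 1 annotated gene, which is not protein-coding. Because the pair is divergent and both members rose, the sequences around their start sites are shown beside that of Des, the main filament gene of muscle fibres, which did not pass. Each runs from 250 bases before to 50 bases after the annotated start (RefSeq, GRCr8), 5′ to 3′ on the strand of the gene, at chr7:135010290-135010589 on the minus strand for Krt8, chr7:135035918-135036217 on the plus strand for Krt18 and chr9:84299376-84299675 on the plus strand for Des. Capitals mark matches on either strand to 5 motifs. The E-box, a kind of site bound by myogenic factors, was searched as CANNTG. The core site of Runx factors was searched as TGTGGT. The AP-1 site of Fos and Jun proteins was searched as TGANTCA. The GC box of Sp factors was searched as GGGCGG, and the box bound by the TATA-binding protein as TATAAA.
Krt8: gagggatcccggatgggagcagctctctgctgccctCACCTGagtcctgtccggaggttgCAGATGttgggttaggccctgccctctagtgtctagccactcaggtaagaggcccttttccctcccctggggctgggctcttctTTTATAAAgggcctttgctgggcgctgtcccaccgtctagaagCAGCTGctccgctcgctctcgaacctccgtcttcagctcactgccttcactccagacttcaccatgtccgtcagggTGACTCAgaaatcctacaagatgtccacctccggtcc
Krt18: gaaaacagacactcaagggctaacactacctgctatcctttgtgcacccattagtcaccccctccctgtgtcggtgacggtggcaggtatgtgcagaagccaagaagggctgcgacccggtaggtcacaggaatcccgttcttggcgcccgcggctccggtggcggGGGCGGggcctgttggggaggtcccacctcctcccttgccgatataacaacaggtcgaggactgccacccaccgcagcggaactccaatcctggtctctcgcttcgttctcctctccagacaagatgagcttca
Des: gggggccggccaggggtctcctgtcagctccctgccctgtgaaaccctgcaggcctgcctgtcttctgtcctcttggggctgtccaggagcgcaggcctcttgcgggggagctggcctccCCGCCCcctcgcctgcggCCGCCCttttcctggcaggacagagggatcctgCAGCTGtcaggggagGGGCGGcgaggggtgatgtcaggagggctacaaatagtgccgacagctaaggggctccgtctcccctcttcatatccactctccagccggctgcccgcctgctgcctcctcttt
The Krt8 window held 3 E-box matches, 1 AP-1 match and 2 overlapping TATA box matches, one on each strand and sharing 4 bases. The annotated start of Krt8 falls on an ATG, and its AP-1 match begins at position 14, after that start, so it may lie in coding sequence. The Krt18 window held 1 GC box match and 0 of the other motifs, so no motif searched was found in both windows. After the annotated start of Krt18 an ATG comes only near the end of the window. The 2 windows may therefore not cover like regions of the genes. The Des window held 1 E-box and 3 GC box matches. Among all 33469 windows of this length in the table, 72.1% held an E-box, 33.1% a GC box, 17.3% the Runx motif, 14.2% the TATA box and 7.33% the AP-1 motif. Promoter sequences were matched for 5 of the 8 genes, and of these the Vim window held 1 GC box and 1 TATA box match and the Nes window 2 GC box matches. The matches describe letters in these windows only.

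Across the 8 genes, Krt18, Krt8, Nefm, Nes and Vim were higher in aged muscle and passed the test, whereas Des, Krt19 and Nefl did not pass. The 5 calls were all in one direction, with 0 members lower. In bulk tissue such as this, more or fewer cells of a type and more or less RNA per cell cannot be told apart. Over all 19049 genes, represented by the brightest probe set where there were several, 13.8% were called higher and 8.70% lower in aged muscle. The groups did not overlap for 3 members (Krt18, Krt8 and Nefm), where 10.6% of all genes lay wholly above the young values in aged muscle. The median log2 fold change was 0.73 over the 8 members and -0.01 over all genes. The members were chosen with earlier results of these data known, so these shares and medians describe them and are no test of the group. For 4 members a group mean lay under a log2 intensity of 3.75, the lowest median of any array (an intensity of 13.46), and since no detection measure came with the values, their levels there are not shown to be above background. These were Krt18 and Nefm in young muscle, and Krt19 and Nefl in both groups. Probe sets differ in brightness for the same amount of RNA, so the members' levels were not ranked against each other; within a member, aged and young animals were compared.

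**Figure D1:**
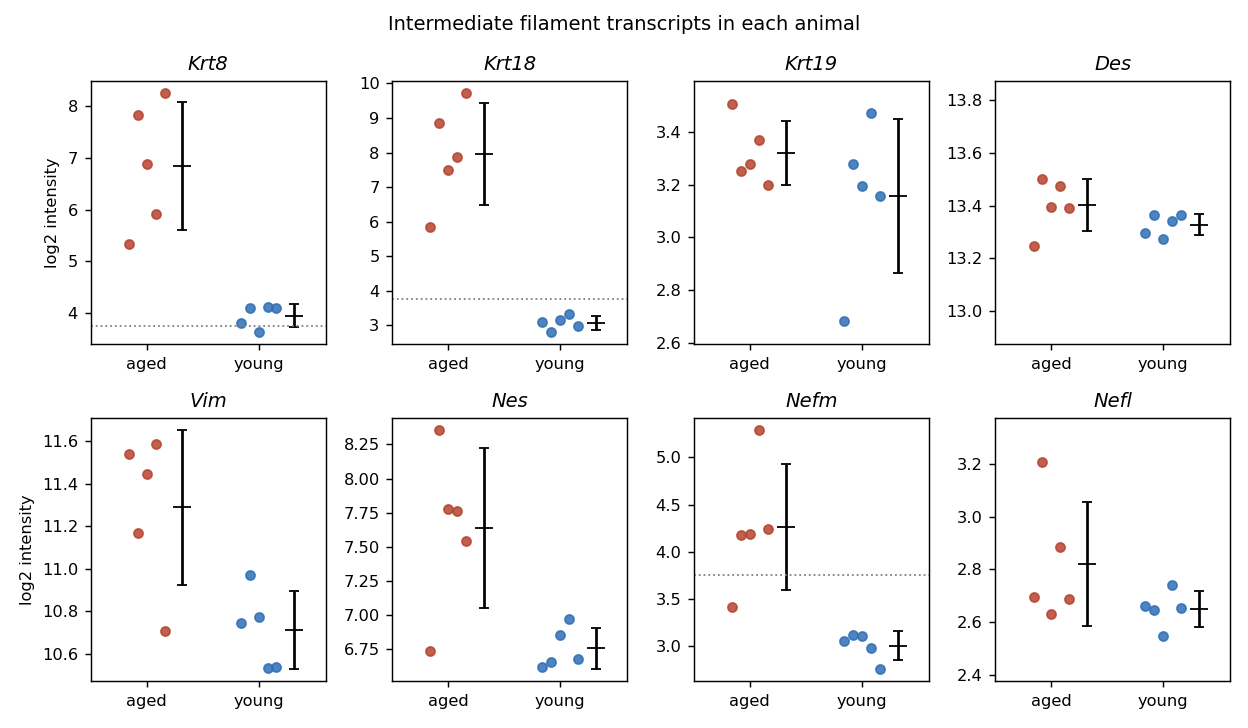
Log2 intensity of each of the 8 genes in 5 aged (left, red) and 5 young (right, blue) animals; each panel has its own axis, bars give mean ± SD (n = 5), and a dotted line marks the lowest array median (log2 intensity 3.75) where the panel reaches it. Krt8, Krt18 and Nefm are separated between the groups, 1 aged animal each falls among the young for Vim and Nes, and all Krt19 and Nefl points lie under the limit.

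The keratins separated into a pair that rose and Krt19, which did not pass. Krt18, the type I keratin of simple epithelia, had intensities of 57.0, 463, 180.0, 232 and 845 in aged replicates 1 to 5, against 8.61, 6.98, 8.94, 10.1 and 7.97 in young replicates 1 to 5. Every aged animal was above every young one, and all 5 young values lay under the lowest array median. The geometric mean was 248 in aged and 8.46 in young muscle, a log2 fold change of 4.87 ± 0.52 (SE, n = 5 per group; limma, adjusted p = 9.03e-05) with a 95% interval of 3.75 to 6.00. Of all 19049 genes, 4 had a larger increase. With log2 intensities under 3.75 set to 3.75, the fold was 18.4 rather than 29.3 and the gene still passed (limma, adjusted p = 0.00849).

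Krt8, the type II partner of Krt18, had intensities of 40.2, 228, 118, 60.1 and 306 in aged replicates 1 to 5, against 14.03, 17.0, 12.3, 17.3 and 17.1 in young replicates 1 to 5. The groups again did not overlap, and here the young mean (log2 intensity 3.94) stood above the lowest array median, with 1 young value under it. The log2 fold change was 2.90 ± 0.44 (SE, n = 5 per group; limma, adjusted p = 0.00086), a 7.44-fold rise with a 95% interval of 3.84-fold to 14.4-fold. Of all genes, 34 had a larger increase. Leaving out any single array kept Krt8 between 5.82-fold and 9.67-fold and Krt18 between 21.5-fold and 42.3-fold.

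Krt19, the other type I keratin that can pair with Krt8, had intensities of 11.35, 9.52, 9.70, 10.3 and 9.18 in aged replicates 1 to 5, against 6.42, 9.71, 9.15, 11.1 and 8.93 in young replicates 1 to 5. All 10 values lay under the lowest array median and the groups overlapped. The log2 fold change was 0.16 ± 0.12 (SE, n = 5 per group; limma, adjusted p = 0.434), with a 95% interval of -0.10 to 0.43. At this signal a change could not be told from background.

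The unequal changes of the keratins were tested within each animal, as differences of log2 intensity between 2 members, by an exact permutation test, two-sided, that enumerated the 252 ways to divide the arrays. In all 5 pairs of members were tested and adjusted together, and 0.00794 is the smallest unadjusted p that 5 against 5 arrays allow. The change of Krt8 was smaller than that of Krt18 by 1.98 on the log2 scale (difference of changes -1.98; exact permutation, adjusted p = 0.0132). The Krt8 minus Krt18 difference averaged -1.11 ± 0.60 in aged and 0.86 ± 0.33 in young animals (SD, n = 5 each). With values floored at the lowest array median the difference of changes was -1.33, since young Krt18 lay under that limit. For Krt19 against Krt18 the difference of changes was -4.71 (exact permutation, adjusted p = 0.0132) and -4.20 with floored values. The floored value is the change of Krt18 alone, because Krt19 lay under the limit on all 10 arrays, and no change of Krt19 can be read from it. For both pairs, 5 of 5 aged animals lay below the whole young range.

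**Figure D2:**
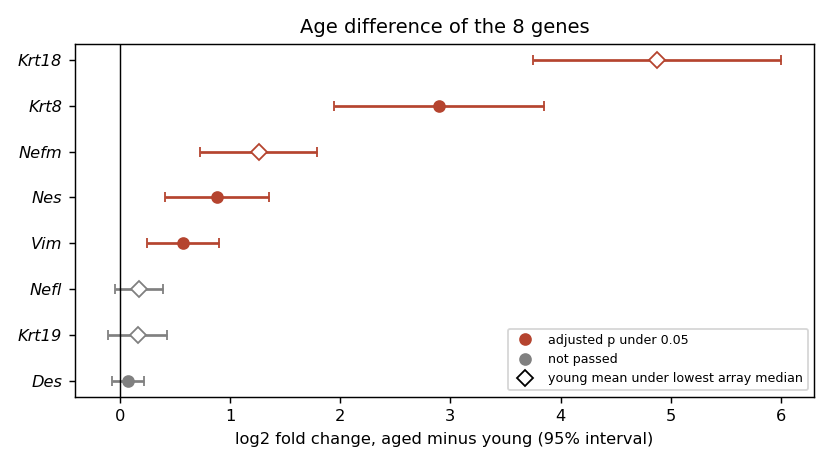
Log2 fold change, aged minus young, of each of the 8 genes with its 95% interval from limma (n = 5 per group); red marks an adjusted p under 0.05 and open diamonds a young mean under the lowest array median. Krt18 (4.87) and Krt8 (2.90) lie furthest to the right, and the intervals of Nefl, Krt19 and Des include 0.

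Desmin did not pass, while the filament genes of immature muscle and mesenchymal cells rose. Des, which encodes the filament of the Z-disc in mature fibres, had intensities of 9712, 11595, 10784, 11379 and 10759 in aged replicates 1 to 5, against 10069, 10545, 9903, 10385 and 10550.4 in young replicates 1 to 5. The highest 4 aged values lay above every young one, and aged replicate 1 was the lowest of all 10 animals. The log2 fold change was 0.07 ± 0.07 (SE, n = 5 per group; limma, adjusted p = 0.521), and the 95% interval ran from 0.953-fold to 1.16-fold.

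Vim, the vimentin gene of mesenchymal cells and muscle precursors, had intensities of 2977, 2301, 2787, 3074 and 1672 in aged replicates 1 to 5, against 1718, 2004, 1752, 1483 and 1488 in young replicates 1 to 5. Aged replicate 5 fell among the young animals and the other 4 aged animals lay above all of them. The rise of Vim was 1.49-fold, or 0.58 ± 0.15 on the log2 scale (SE, n = 5 per group; limma, adjusted p = 0.021). The call was lost without aged replicate 3 (adjusted p = 0.0539), young replicate 4 (adjusted p = 0.0576) or young replicate 5 (adjusted p = 0.0564) in limma, with log2 fold changes of 0.53 to 0.54.

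Nes, which encodes nestin, a filament of muscle precursors that mature fibres keep mainly at nerve and tendon junctions, had intensities of 107, 328, 219.6, 218 and 187 in aged replicates 1 to 5. In young replicates 1 to 5 the values were 98.45, 101, 116, 125 and 102. Aged replicate 1 lay within the young range and the other 4 aged animals above it. The rise of Nes was 1.84-fold, or 0.88 ± 0.22 on the log2 scale (SE, n = 5 per group; limma, adjusted p = 0.015). Without aged replicates 4 and 5, whose columns are marked as replacements in one deposited table, the log2 fold change was 0.87 and no longer passed (limma, adjusted p = 0.0637).

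Nes changed by 0.81 more than Des on the log2 scale (exact permutation, adjusted p = 0.0298) and Vim by 0.50 more (exact permutation, adjusted p = 0.0476), each in 4 of 5 aged animals beyond the young range. Without the 2 replacement arrays the Nes and Des difference was 0.82 (adjusted p = 0.0536). The Vim and Des difference did not pass with quantile normalization (0.42, adjusted p = 0.0952), nor without any single array other than aged replicate 5 and young replicate 2 (0.40 to 0.56, adjusted p = 0.0556 to 0.0873).

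The neurofilament genes were dim. Nefm, the medium chain of axonal neurofilaments, had intensities of 10.6, 18.1, 18.2, 39.25 and 18.9 in aged replicates 1 to 5, against 8.30, 8.69, 8.62, 7.85 and 6.74 in young replicates 1 to 5. The groups did not overlap, aged replicate 4 was the highest and aged replicate 1 the lowest aged value, and all 5 young values and 1 aged value lay under the lowest array median. The rise of Nefm was 2.40-fold, or 1.26 ± 0.25 on the log2 scale (SE, n = 5 per group; limma, adjusted p = 0.0039). With values floored at that median it was 1.49-fold higher and did not pass (limma, adjusted p = 0.243), so its size rests on values not shown to be above background.

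Nefl, the light chain that neurofilaments need for assembly, had intensities of 6.48, 9.23, 6.20, 7.39 and 6.44 in aged replicates 1 to 5, against 6.32, 6.25, 5.84, 6.68 and 6.29 in young replicates 1 to 5. All 10 values lay under the lowest array median, and aged replicates 2 and 4 were above the young range. The log2 fold change was 0.17 ± 0.10 (SE, n = 5 per group; limma, adjusted p = 0.299). For Nefl against Nefm the difference of changes was -1.09 (exact permutation, adjusted p = 0.0132), but it too rests on values under the limit. With floored values it was -0.58, which is the change of Nefm alone, and no change of Nefl can be read from it.

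The aged animals spanned a wider range than the young ones for the members that rose. The young spread of Krt18 and Nefm was measured under the lowest array median, where it cannot be read as the spread between animals. Young Krt8 lay close to that median, which limits the reading of its young spread too. Krt18 spanned 14.8-fold over the aged and 1.45-fold over the young animals, with SDs of 1.47 and 0.20 on the log2 scale. Krt8 spanned 7.61-fold over the aged and 1.403-fold over the young animals (SDs of 1.24 and 0.22). The median SD of all probe sets was 0.14 in aged and 0.12 in young animals, and 99.9% of probe sets had a smaller aged SD than Krt8. In young animals, 89.1% of probe sets had a smaller SD than Krt8. For Nes the highest aged value was 3.07-fold the lowest, against 1.27-fold in young animals, and for Nefm 3.69-fold, against 1.29-fold. For Vim the difference was smaller, at 1.84-fold in aged and 1.35-fold in young animals (SDs of 0.36 and 0.18). A wider aged spread was not confined to members that rose, since Des had SDs of 0.10 in aged and 0.041 in young animals. Nefl had SDs of 0.235 and 0.069, while Krt19 went the other way (0.12 and 0.292), both with all values under the limit.

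The order of the aged animals was not the same for every member. For Krt18 and Krt8 aged replicate 5 was the highest, at 99.8-fold and 19.9-fold the young geometric mean. Aged replicate 2 came next for both keratins, at 54.7-fold for Krt18 and 14.8-fold for Krt8. The folds of Krt18 stand on a young level under the limit; with the young values floored they were 62.8-fold in aged replicate 5 and 34.4-fold in aged replicate 2. Aged replicate 1 was the lowest for both, at 6.74-fold for Krt18 and 2.61-fold for Krt8, and it was also the lowest aged animal for Nes (0.989-fold) and Nefm (1.33-fold). The floored value of aged replicate 1 was 4.24-fold for Krt18, and for Nefm, whose young level was also under the limit, this animal lay under the limit itself. For Vim the order differed, since aged replicate 1 was among the highest (1.77-fold) and aged replicate 5 the lowest (0.996-fold). Aged replicate 4 was the highest for Vim (1.83-fold) and Nefm (4.90-fold, or 2.92-fold with the young values floored), and aged replicate 2 for Nes (3.04-fold). With 5 animals these orders are a description, and no correlation was computed.

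**Figure D3:**
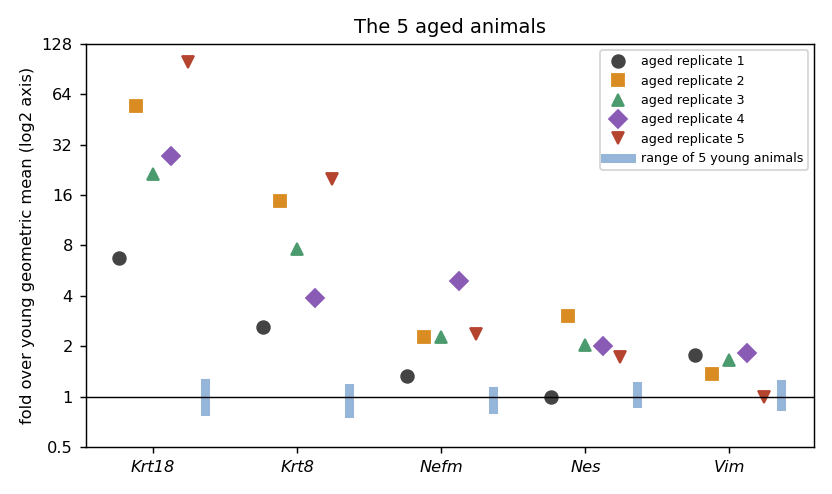
Intensity of the 5 members that rose in each aged animal, as fold over the geometric mean of the young animals on a log2 axis; each symbol is 1 aged animal and blue bars span the 5 young animals, which for Krt18 and Nefm lay under the lowest array median. Aged replicate 5 is highest for Krt18 (99.8-fold) and Krt8 (19.9-fold) and lowest for Vim (0.996-fold), and aged replicate 1 is lowest for all but Vim.

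Other keratin genes did not share the rise of Krt8 and Krt18. Of 45 further keratin genes measured, 0 were called higher, 2 lower and 43 did not pass, and their log2 fold changes lay between -0.27 and 0.06, with a median of -0.09. Over all genes 13.8% were called higher and 8.70% lower. For 27 of the 45 both group means lay under the lowest array median. The genes called lower were the hair keratins Krt85, 1.21-fold lower (log2 fold change -0.27 ± 0.08 SE; limma, adjusted p = 0.0377), and Krt33b, 1.20-fold lower (log2 fold change -0.26 ± 0.08 SE; limma, adjusted p = 0.0486). Neither passed with each array centred on its median, and 0 of the other filament genes were called lower under that setting. Centring changed Krt85 to a log2 fold change of -0.24 (limma, adjusted p = 0.0642) and Krt33b to -0.23 (limma, adjusted p = 0.087). These calls also rested on single arrays, since 0 genes of the list were called lower without aged replicate 2, 3 or 4 or young replicate 2 or 5, and 4 without aged replicate 1; without aged replicate 5 or young replicate 1, 3 or 4 it was 1 gene.

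Among 12 other measured filament genes, 5 rose and 0 fell. Over all 57 measured filament genes outside the members, keratins included, 8.77% rose and 3.51% fell, where 13.8% of all genes rose and 8.70% fell. Lmnb2, which encodes lamin B2 of the nuclear lamina, had intensities of 73.7, 246, 147, 30.25 and 127 in aged replicates 1 to 5, against 12.9, 12.7, 14.8, 12.4 and 14.95 in young replicates 1 to 5. The groups did not overlap, and aged replicate 4 was the lowest aged animal. The rise of Lmnb2 was 7.44-fold (limma, adjusted p = 0.000517). Its young mean (log2 intensity 3.755) stood at the lowest array median, with young replicates 1, 2 and 4 under it. With floored values Lmnb2 was 7.175-fold higher and still passed (limma, adjusted p = 0.0134). Lmna, the gene of lamins A and C, rose 2.52-fold and passed on its other probe set too (2.49-fold), with aged intensities of 1357 to 2066 and young intensities of 613 to 793. Sync, which encodes syncoilin, a filament protein that binds desmin and the dystrophin complex, rose 2.11-fold on its brighter probe set (limma, adjusted p = 0.00105) but not on the dimmer one (log2 fold change -0.08; limma, adjusted p = 0.598). Iffo1 rose 1.54-fold (limma, adjusted p = 0.0105) on 1 of its 2 probe sets. The call was lost with floored values (limma, adjusted p = 0.0554), although the fold of Iffo1 stayed at 1.54. Bfsp1, a filament gene known from the eye lens, rose 1.63-fold (limma, adjusted p = 0.028). The Bfsp1 call was lost without aged replicate 2, 4 or 5 or young replicate 2, 4 or 5 (limma, adjusted p = 0.0503 to 0.0732). It was also lost with floored values (1.54-fold, limma, adjusted p = 0.126) and without the replacement arrays (limma, adjusted p = 0.178). With the replicate number as a block it did not pass either (limma, adjusted p = 0.0524).

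The remaining filament genes of nerve, glia and muscle did not pass on their brightest probe sets. Synm, which encodes synemin, a desmin partner at the Z-disc, had a log2 fold change of -0.13 ± 0.14 (SE; limma, adjusted p = 0.614), although the dimmest of its 3 probe sets passed at -0.48 (limma, adjusted p = 0.0241). Prph, the peripherin gene of peripheral neurons, had 0.07 ± 0.14 (limma, adjusted p = 0.796). Nefh, the heavy neurofilament chain, had -0.08 ± 0.08 (limma, adjusted p = 0.543) and Ina, which encodes alpha-internexin, -0.19 ± 0.07 (limma, adjusted p = 0.0673). Gfap, the filament of astrocytes and some Schwann cells, had 0.25 ± 0.10 (limma, adjusted p = 0.13). The group means of Nefh and Gfap lay under the lowest array median in both groups.

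Proteins that anchor, cap or fold filaments mostly did not pass. Of 18 measured partner genes, 3 rose, 0 fell and 15 did not pass, with a median log2 fold change of 0.07, where 13.8% of all genes rose. Dmd, which encodes dystrophin, the membrane anchor to which costamere keratins bind, rose 1.84-fold on its brightest probe set (limma, adjusted p = 0.00064), and 3 of its 4 probe sets passed. Jup, which encodes plakoglobin of cell junctions, rose 1.47-fold, with aged intensities of 481 to 717 and young intensities of 382 to 447. Neb, the nebulin gene of the thin filament, rose 1.23-fold (limma, adjusted p = 0.0496), and 2 of its 4 probe sets passed. The Neb call was lost without any single array other than aged replicate 1 and young replicate 2 (limma, adjusted p = 0.0717 to 0.12), and with quantile normalization (limma, adjusted p = 0.0834). Plec, the plectin gene of the main crosslinker between desmin and other structures, had a log2 fold change of -0.07 ± 0.12 (SE; limma, adjusted p = 0.75), and Cryab, a small heat shock protein that protects desmin, 0.15 ± 0.07 (limma, adjusted p = 0.169).

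**Figure D4:**
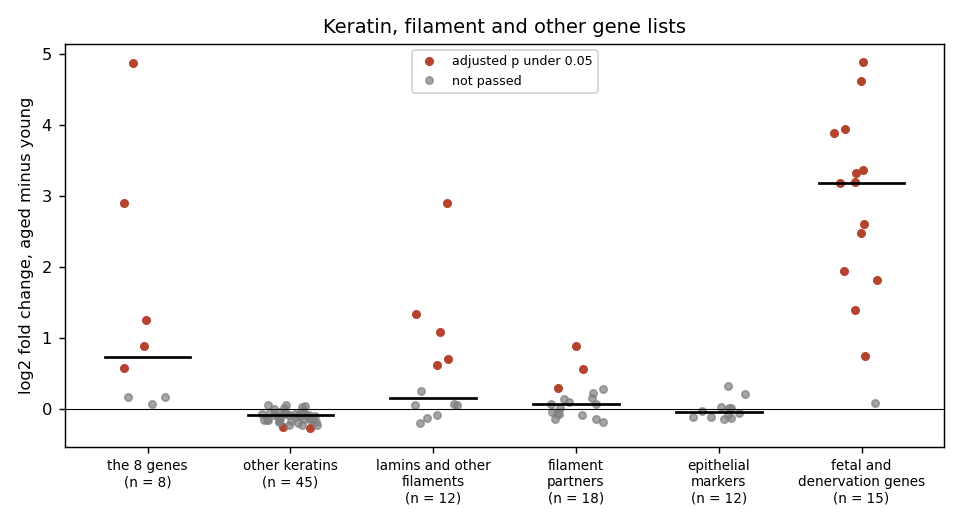
Log2 fold change, aged minus young, of each measured gene of 6 lists, 1 point per gene; red marks an adjusted p under 0.05 in limma (n = 5 per group) and black lines the median. The 45 other keratins lie between -0.27 and 0.06, whereas the fetal and denervation genes have a median of 3.18 and the 8 filament genes a median of 0.73.

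Markers of other cells that carry these filaments were read on the same arrays, where 13.8% of all genes rose and 8.70% fell. Of 12 epithelial markers 0 passed, with 9 under the lowest array median in both groups, Epcam, Cdh1 and Grhl2 among them. Their summed intensity was 180.5 to 200.2 in aged and 186 to 198 in young animals. Of 8 mesothelial markers 0 passed either, 6 were under that median in both groups, and the sums were 102 to 108 in aged and 105 to 112.5 in young animals. These counts use the brightest probe set of each gene, and a dimmer one of Wt1, a mesothelial marker, was called lower. Muscle fibre markers, the check on the labelled tissue, summed to 151400 to 163900 in aged and 151200 to 159300 in young animals. Of the 10 measured, 0 rose and 1, Actn3 of the fast-fibre Z-disc, fell 1.16-fold (limma, adjusted p = 0.0483). A dimmer probe set of Myh4 was also called lower, although its brightest did not pass.

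Lists of other cells, several of which carry vimentin or nestin, were read beside Vim and Nes, where 13.8% of all genes rose and 8.70% fell. Of 12 macrophage markers 6 rose and 0 fell, with sums of 3278 to 10010 in aged and 1002 to 2135 in young animals; Lyz2 rose 3.68-fold, C1qa 2.28-fold and Cd68 1.98-fold. The highest sum was that of aged replicate 1 alone, and the other 4 aged animals had 3278 to 3772. Without it 7 of the 12 rose, a count added after seeing the data, and Vim had a log2 fold change of 0.51 (limma, adjusted p = 0.0384). Of 12 fibroblast markers 3 rose and 1 fell (sums of 9152 to 12600 in aged and 8063 to 11240 in young animals), where Dpt rose 2.99-fold, Col3a1 1.35-fold and Pi16 1.34-fold and Col1a2 fell 1.43-fold. Of 11 satellite cell markers 4 rose and 1 fell (1990 to 3393 in aged and 1601 to 2159 in young animals). Myf5 was 4.25-fold, Myod1 3.53-fold and Cxcr4 1.36-fold higher, and Sdc4 1.32-fold lower. Most of the difference between these sums was that of Myod1, with 684 to 2064 in aged and 239 to 890 in young animals. The other 6 markers did not pass, among them Pax7 (log2 fold change -0.16), Cdh15 (-0.395) and Vcam1 (0.62). Of 12 endothelial markers 0 rose and 1, Esam, fell 1.35-fold (1401 to 2471 in aged and 1680 to 2102 in young animals). Of 10 smooth muscle and pericyte markers 0 rose and 4 fell (1285 to 1797 in aged and 1671 to 1916 in young animals), led by Cnn1 at 1.57-fold, Tagln at 1.42-fold and Rgs5 at 1.35-fold lower. On a dimmer probe set Mrc1 was called higher and Col1a1, Heyl and Myh11 lower, although the brightest of each did not pass. The part of these cell types in the rise of Vim and Nes was not tested.

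Beside the neurofilament genes, 2 of 12 neuronal markers (16.7%) rose and 0 fell, where 13.8% of all genes rose and 8.70% fell. Of the 12, 6 were under the lowest array median in both groups, and the sums were 271 to 423 in aged and 209 to 245 in young animals. Uchl1, a ubiquitin hydrolase of neurons, rose 5.21-fold (limma, adjusted p = 0.000359) and Stmn2, a tubulin-binding protein of growing axons, 2.16-fold (limma, adjusted p = 0.00971). Most of the difference between the sums was that of Uchl1, with 44.7 to 203 in aged and 16.1 to 24.4 in young animals. The young mean of Stmn2 lay under the lowest array median, and with floored values it was 1.72-fold higher (limma, adjusted p = 0.0333). Of 12 Schwann cell markers 0 rose and 1, Foxd3, fell 1.25-fold, with sums of 1528 to 2371 in aged and 1643 to 2378 in young animals. S100b did not pass on its brightest probe set (1.58-fold higher, limma, adjusted p = 0.1), although its dimmer one was called higher. The part of nerve in the Nefm difference was not tested.

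Genes of fetal and denervated fibres were far higher on the same arrays. Of 15 such genes, 14 rose and 0 fell, where 13.8% of all genes rose and 8.70% fell. Their median log2 fold change was 3.18, against 0.73 for the 8 filament genes and -0.01 for all genes. Myh3, embryonic myosin, rose 29.4-fold, Chrna1, a subunit of the acetylcholine receptor, 24.5-fold and Sln, an inhibitor of the calcium pump, 15.3-fold. Myod1 stands in this list and in the satellite cell list. The list was chosen with earlier results of these arrays known and is given for comparison of sizes.

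The genes whose pattern over the 10 arrays lay closest to each member that rose at least 2-fold were found among 19026 others, as the root-mean-square difference of log2 intensities after centring each gene on its own mean. Closest to Krt18 were Clrn1, a membrane protein of sensory cells (0.37), Emb, a partner of lactate transporters (0.69), and Ctxn3, a small membrane protein (0.69), where Krt18 itself deviated by 2.61 from its mean. Clrn1 had intensities of 158, 659, 264, 430.0 and 1355 in aged replicates 1 to 5, so that its aged animals stood in the same order as for Krt18, and its young values were 9.19 to 13.2. Closest to Krt8, which deviated by 1.65, were Prrg4, a membrane protein with a Gla domain (0.40), Sohlh2, a transcription factor known from germ cells (0.40), and Adap2, a regulator of Arf GTPases (0.49). Closest to Nefm, which deviated by 0.77, were Usp11, a deubiquitinase (0.19), LOC100359678 (0.22) and Maged1, an adaptor protein (0.23). All 9 genes passed in the same direction, which follows largely from choosing them by likeness to members that had passed. The young values of Clrn1 and Sohlh2 lay under the lowest array median. Usp11 and Prrg4 had a dimmer probe set each, which passed for Prrg4 (limma, adjusted p = 0.0204) but not for Usp11 (limma, adjusted p = 0.992). The likeness rests largely on the difference between the groups that the members and these genes share.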

How the data were processed

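The authors deposited linear intensities, already normalized. RMA is the tool in the submitters' processing notes, which give no version; it compresses differences of dim probe sets. The array design and genome build are not given in the sources used here. The symbol table (43686 probe sets) gives each column's age group and was used for the tests; the other table (43685 of them) carries replicate numbers, and its 10 columns equal those of the symbol table. It gave the values per animal and the fits without single arrays. Of 19091 symbols, 3266 were updated through RefSeq (GRCr8) for the lists. Intensities were log2-transformed without pseudocount or filter.

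Every probe set was fitted with limma 3.58.1 (R 4.3.3; lmFit, eBayes, two-sided) with age group as the only term. A gene with several probe sets is given by the brightest. The fit was tested on simulated data. Exact permutation tests ran in Python 3.11.15. Alternatives were quantile normalization, median centring, bright probe sets only, a floor, an intensity trend, array weights, arrays left out, the replicate number as a block and probe set means.

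The members and lists were chosen with earlier results of these data known. Named are all members, of each list up to 3 of the largest increases and decreases that passed, fixed filament genes, and the 3 closest patterns of members that rose at least 2-fold. Epcam, Cdh1, Grhl2, Bfsp1, Iffo1, Pax7, Cdh15 and Vcam1 were added after their values were seen. Replicates are separate animals. The number of arrays limits the precision.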

Additional observations from a re-analysis of the deposited data

Results flagged for a closer look

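Of 192 groups of 5 animals checked for an animal far from the rest, over the members, their pairs, most other named probe sets and the marker sums, 11 held one, where chance gives about 1 in 20. None was a member or a pair of members. In 6 of the 11 the animal was aged replicate 1. It was the highest aged animal for the macrophage sum, at 10010 against 3278 to 3772 in the other 4 aged animals. It was also the highest for Lyz2, at 7495 against 1719 to 1901, and for Cd68, at 311 against 100.2 to 115. The same animal was the lowest of the aged for Sync, at 331 against 563 to 639, for the dimmer Lmna probe set, at 347 against 499 to 514, and for Sln, at 4749 against 9550.0 to 12280. Aged replicate 4 was the highest for Plec, at 1961 against 1233 to 1386, and aged replicate 2 for the mesothelial sum, at 108 against 102 to 104. Among young animals, replicate 2 was the lowest for Bfsp1, at 10.1 against 14.4 to 15.35, replicate 4 the lowest for Uchl1, at 16.1 against 21.7 to 24.4, and replicate 1 the highest for LOC100359678, at 67.9 against 47.3 to 50.5.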

How the results depend on the processing

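Krt8 and Krt18 passed, and Des, Krt19 and Nefl did not, under each of the alternatives that gave them a value, without reversal. With bright probe sets only, 5 members had a value and 4 passed. The counts below are of genes higher, then lower, in aged muscle. With values floored at the lowest array median, 2 members were higher rather than 5, and 3 and 1 other filament genes rather than 5 and 2. Vim (adjusted p = 0.0886) and Nes (adjusted p = 0.0805) no longer passed in limma. For Vim and Nes 0 arrays lay under that median, and their log2 fold changes stayed at 0.58 and 0.88. Their SEs grew from 0.152 to 0.178 for Vim and from 0.218 to 0.265 for Nes. Since the floor altered no value of Vim or Nes, the SEs grew through the spread that limma shares over all probe sets. The loss of these calls therefore does not speak of the signal of Vim or Nes. Other filament genes called lower were 5 with quantile normalization, 0 with median centring, 0 with an intensity trend and 0 without the replacement arrays. Without single arrays, members higher were 4 to 5 and lower 0 to 0, other filament genes higher 4 to 5 and lower 0 to 4, partners higher 2 to 3 and lower 0 to 1 (the 1 without aged replicate 1), and fetal and denervation genes higher 13 to 14. The differences of changes ranged from -2.13 to -1.77 for Krt8 and Krt18, from -5.29 to -4.24 for Krt19 and Krt18, from 0.40 to 0.65 for Vim and Des, from 0.65 to 0.99 for Nes and Des and from -1.27 to -0.84 for Nefl and Nefm. Vim and Des gave 0.42 with quantile normalization and Nes and Des 0.82 without the replacement arrays. Over all probe sets, same-numbered animals did not deviate together (correlations -0.12 to 0.03, and 1 of 5 aged arrays correlated best with its own number). No pairing by number was seen there, and a shared effect on some genes was not tested. With the replicate block 5 members rose and 0 of the other filament genes fell, and in pairs the smallest p is 0.0625. Dim signal limits Krt19, Nefl, Nefm and young Krt18, and young Krt8 lay close to the lowest array median.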
